A study of Mus musculus with 4 samples.

Results

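The cytochrome P450 genes were examined as a family in a list of chromatin contacts from a mouse brain tumor. The members are the protein-coding autosomal genes whose mm10 symbol is Cyp followed by digits, 1 letter and digits. There were 92 of them among 20665 autosomal coding genes. An interaction was counted for a gene when 1 of its 10 kb anchor bins came within 2.5 kb of the lower or the higher coordinate of the gene, and such a bin is said to hold the gene's end. The list holds 99041 pairs of anchors from HiChIP for H3K27ac, an assay that joins DNA fragments lying close together in the nucleus and enriches them with an antibody to the acetylated histone of active promoters and enhancers. Per the labels, 2 libraries came from YAP-M tumor of mouse brain with the genotype YAP-M fusion, and 2 from cultured wild-type neural stem cells, all with an H3K27ac antibody. YAP-M is known from the study as YAP1 fused to MAMLD1. The titles say ChIP-seq, but the protocol and the paired anchors are those of HiChIP, and the only growth protocol given is that of the stem cells. The file's name, with the letters YM, is read here as the tumor. The file names no library and carries no read count, score or depth, so no value below has a replicate error and no test between conditions was possible. How the fusion was brought into the tumor, and from how many animals, is not given in the sources used here; neural stem cells were not analysed here.

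As background, cytochromes P450 are heme enzymes that insert oxygen into lipids, steroids, vitamins and foreign compounds. Their symbols give the family as a number and the subfamily as a letter. Members of Cyp2, Cyp3 and Cyp4 are best known from the liver, where they act on drugs and fatty acids, and many of them lie in tandem arrays. The other families mostly hold enzymes of bile acid, steroid, vitamin D and retinoic acid metabolism, several of which are known from the brain. HiChIP of tissue reports DNA contacts over all its cells, so fewer cells with a contact and a weaker contact per cell cannot be told apart.

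Most P450 genes had no listed interaction. At least 1 interaction touched an end of 29 of the 92 genes (31.5%, exact 95% interval 22.2 to 42.0%), against 65.7% of all autosomal coding genes. The median was 0 interactions per P450 gene and 2 per coding gene. At 13 P450 genes (14.1%) there were 5 or more interactions, against 36.1% of coding genes, and at 6 (6.52%) there were 10 or more, against 17.1%. The highest count in the family was 16, at Cyp4f17, while the highest over all coding genes was 144. Together the family's ends took part in 128 interactions, 0.129% of the list. The intervals cover counting error only and are too narrow, because neighbouring genes can share an anchor.

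Clustered and single members differed. A gene was called clustered when another member lay within 100 kb. Of 67 clustered genes, 13 had an interaction (19.4%, 10.8 to 30.9%), with a median of 0. Of 25 single genes, 16 had one (64.0%, 42.5 to 82.0%), with a median of 2. Without the 8 members of the Cyp4f locus described below, 5 of 59 clustered genes had an interaction (8.47%). The clustered genes had a median of 21 coding genes within 500 kb, the single genes 16 and all coding genes 17. These counts include other P450 genes, so the members of an array add to each other's count. By family, 17 of 71 genes of Cyp2, Cyp3 and Cyp4 had an interaction (23.9%, 14.6 to 35.5%), and 12 of 21 genes of the other families (57.1%, 34.0 to 78.2%). Without the Cyp4f locus, 9 of 63 genes of Cyp2, Cyp3 and Cyp4 did (14.3%). These splits overlap: 61 of the 67 clustered genes belonged to Cyp2, Cyp3 or Cyp4. Among single genes, 6 of 10 in Cyp2, Cyp3 and Cyp4 had an interaction and 10 of 15 in the other families. Among clustered genes the counts were 11 of 61 and 2 of 6. The families Cyp2, Cyp3 and Cyp4 also differed among themselves, with 6 of 47 genes in Cyp2, 0 of 7 in Cyp3 and 11 of 17 in Cyp4.

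**Figure D1:**
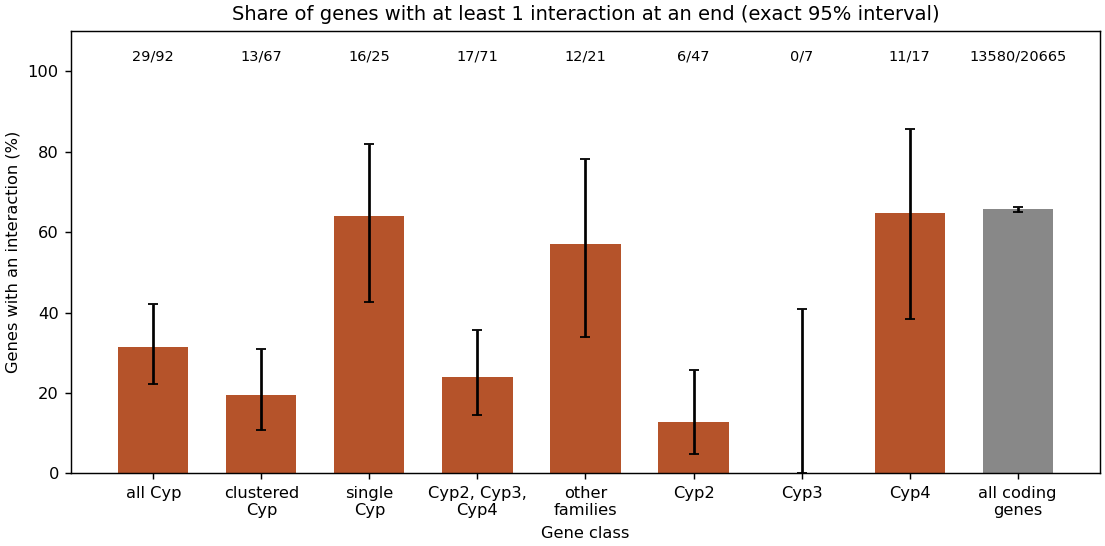
Bars give the share of genes with at least 1 interaction at an end (%), for classes of cytochrome P450 genes and for all autosomal coding genes; error bars are exact 95% binomial intervals and the numbers above are counts. Clustered genes reached 19.4%, single genes 64.0% and all coding genes 65.7%.

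Other genes with a neighbour of like name were also below the genome. The symbol stem is the leading letters of the symbol, and unrelated genes can share it. The shares below are therefore not those of gene families in arrays. Of 4292 coding genes outside the family with a neighbour of the same symbol stem within 100 kb, 35.0% had an interaction. Without the olfactory and vomeronasal receptor genes (symbols Olfr and Vmn), 50.1% of 2884 did. Coding genes without such a neighbour had one in 74.0% of 16281 cases. The value of 19.4% for clustered P450 genes is thus to be read beside 35.0% and 50.1%, and no test was made between them.

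The clustered genes fell mainly into 7 loci, each of at least 5 members lying within 500 kb of the next. These loci held 63 of the 92 members. The Cyp2c locus, whose enzymes oxidise drugs and arachidonic acid, had 14 members on chromosome 19 from 39006940 to 40187286. None had an interaction, and none of the 119 bins of the locus was an anchor. The anchor-free stretch around it ran for 1660 kb, rank 145 by length among 17431 stretches without an anchor.

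The Cyp3a locus, which holds the main drug-oxidising enzymes of mouse liver, and the Cyp2j locus, whose enzymes form epoxides of arachidonic acid, were equally bare. Cyp3a spans 770 kb on chromosome 5 from 145345149 to 146114978, with 6 members, and lay in an anchor-free stretch of 890 kb. Cyp2j spans 622 kb on chromosome 4 from 96042660 to 96664171, with 7 members, and lay in a stretch of 730 kb. In these 3 loci together, 27 genes and 260 bins carried no anchor. In the list, 2 interactions had 1 anchor on each side of Cyp3a, and none spanned Cyp2j in that way. No listed interaction was longer than 1000 kb, so none could span the 1660 kb stretch around Cyp2c.

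In 3 further loci, interactions were found at the margin or at few genes. The Cyp2a and Cyp2b locus on chromosome 7, from 25802469 to 27158564, had 13 members. There, an interaction touched only the outermost genes, Cyp2s1 with 2 and Cyp2t4 with 6, and the 1340 kb between them held 11 members and no anchor. The anchored bins of Cyp2t4 also held an end of Egln2, an oxygen-sensing prolyl hydroxylase, and of Rab4b. In the Cyp2d locus on chromosome 15, from 82370527 to 82794452, 1 of 8 members had an interaction, Cyp2d40, with a single partner at 40 kb. In the Cyp4a, Cyp4b and Cyp4x locus on chromosome 4, from 115106323 to 115647721, the outermost gene Cyp4x1 had 5 interactions. The other 6 members there, among them the fatty acid hydroxylase genes Cyp4a10 and Cyp4a14, had 0.

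Members inside these 6 loci had interactions less often than the genes beside them, with 4 of 55 members against 46 of 65 coding genes of other families within 200 kb of the outer ends (70.8%, 58.2 to 81.4%). The 6 loci leave out Cyp4f, where every member had an interaction, so they were chosen on this outcome. Over all 7 loci it was 12 of 63 members and 53 of 77 flanking genes (68.8%, 57.3 to 78.9%). No test was made of these differences. The flanks were not alike. At the Cyp2a and Cyp2b locus, 21 of 22 flanking genes had an interaction, whereas at Cyp3a 4 of 13 did. Beside Cyp2c, Noc3l, Tbc1d12, Hells and Pdlim1 had 0. Since 21 of the 46 connected genes lay beside the Cyp2a and Cyp2b locus, the pooled share of 70.8% does not describe the surroundings of Cyp2c and Cyp3a. The 6 coding genes of other families that lie inside these 6 loci, Vmn1r184, Vmn1r185, Nlrp4a, Nlrp9a, Nlrp9c and Tdg-ps, had no interaction. Over all 7 loci, 2 of 10 such genes had one. Of the 494 bins in the 6 loci, 9 were anchors (1.82%), against 23.6% of all bins between the outermost anchors of each autosome. With Cyp4f included, 26 of 544 bins were anchors.

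**Figure D2:**
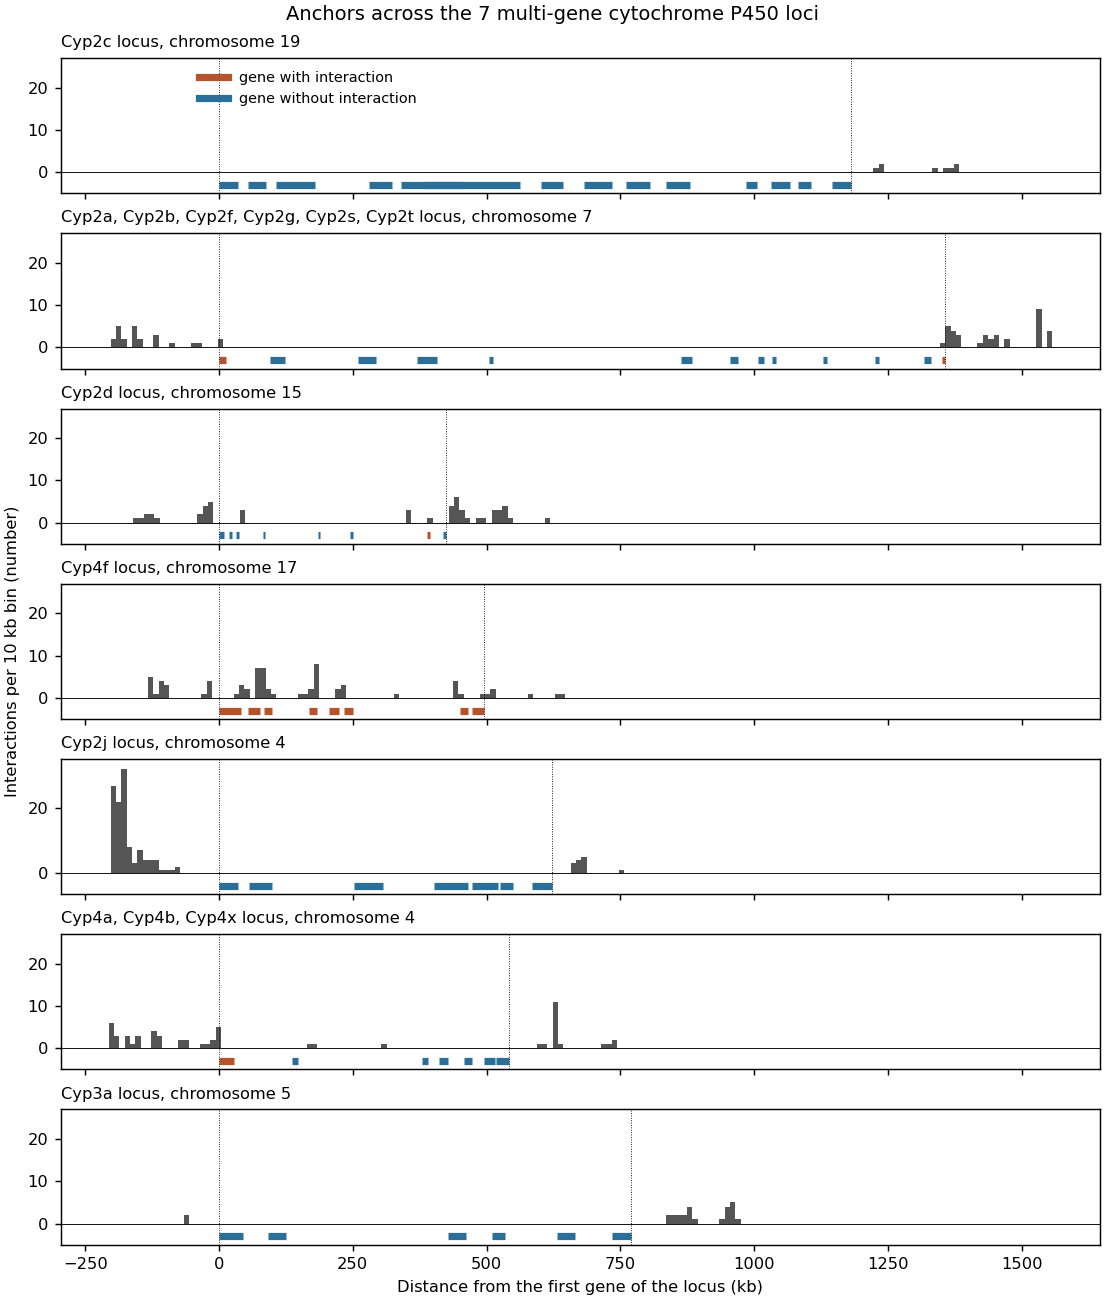
Grey bars give the number of interactions per 10 kb bin along the 7 loci and 200 kb to each side, by distance from the first gene (kb); blocks under each axis are P450 genes, coloured by whether an end has an interaction, and dotted lines bound the locus. No anchor lies inside Cyp2c, Cyp2j and Cyp3a, and none in the 200 kb before Cyp2c, while anchors run through Cyp4f; the vertical scale of Cyp2j is longer, up to 32 interactions in a bin outside the genes.

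In the Cyp4f locus, every member had an interaction. Its enzymes hydroxylate fatty acids and leukotrienes, which are inflammatory lipids. The locus lies on chromosome 17 from 32452697 to 32947415 and holds 8 members. Of its 50 bins, 17 were anchors (34.0%), against 23.6% over the autosomes. Cyp4f17 had 16 interactions, Cyp4f37 had 11 and Cyp4f16 had 10. Cyp4f15 and Cyp4f39 had 3 each, Cyp4f40 had 2, and Cyp4f13 and Cyp4f14 had 1 each. Counted once, these were 26 interactions, or 8 contacts after adjacent interactions were merged.

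The P450 genes of this locus were joined to each other. All 14 interactions that linked end bins of different members, as the symbol rule defines them, lay within Cyp4f, at distances of 40 to 410 kb. On chromosome 4, Cyp4x1 was also joined at 310 kb to a bin with an end of Cyp4a12b, a P450 gene whose symbol falls outside that rule. Of the 14, 7 had an end of Cyp4f37 on 1 side and of Cyp4f16 or Cyp4f17 on the other. Cyp4f16 and Cyp4f17 share an end bin, so their counts are not independent. Outside the family, Cyp4f17 reached ends of Zfp472 and Zfp870, both zinc finger genes, and of Akap8 and Akap8l, which encode nuclear anchoring proteins of protein kinase A. Zfp870 lies inside the locus and had 4 interactions.

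The promoters of Cyp4f16 and Cyp4f37 are shown because these genes are joined to each other and their promoters resemble each other. The joins are not all between promoters. Of the interactions of Cyp4f37, 3 were at its start and 8 at its other end, and for Cyp4f16 these were 7 and 3. Both are on the plus strand of GRCm38.p6, the assembly of mm10, and come from RefSeq, 250 bases before to 50 after the start. Cyp4f16 is at chr17:32536307-32536606 and Cyp4f37 at chr17:32621069-32621368. Capitals mark CG pairs, of which each has 2.
Cyp4f16: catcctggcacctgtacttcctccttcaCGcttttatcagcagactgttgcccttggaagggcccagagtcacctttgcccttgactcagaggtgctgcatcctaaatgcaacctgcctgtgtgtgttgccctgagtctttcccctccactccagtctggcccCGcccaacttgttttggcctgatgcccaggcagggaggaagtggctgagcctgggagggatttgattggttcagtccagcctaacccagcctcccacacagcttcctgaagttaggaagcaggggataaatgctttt
Cyp4f37: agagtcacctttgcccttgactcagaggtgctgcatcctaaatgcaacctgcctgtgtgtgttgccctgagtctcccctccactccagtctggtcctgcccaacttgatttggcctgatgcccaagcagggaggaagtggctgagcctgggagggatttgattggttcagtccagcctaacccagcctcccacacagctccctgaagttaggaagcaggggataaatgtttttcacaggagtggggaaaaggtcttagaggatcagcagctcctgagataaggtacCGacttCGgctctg
A local alignment covered 235 bases at 96.6% identity. Reads from such stretches can be hard to place, and how the authors treated them is not given in the sources used here. Members with a listed promoter were therefore split by whether a stretch of at least 150 bases matched another member at 90% identity or more. Of 19 clustered genes with such a near copy, 2 had an interaction, and these were Cyp4f16 and Cyp4f37. Of 37 clustered genes without one, 10 had an interaction, or 5 of 32 without Cyp4f. The Cyp2j genes had no near copy by this measure and no interaction. The match covers 300 bases per gene only. The part of read placement was not tested, either in the missing anchors or in the interactions that join Cyp4f37 to Cyp4f16 and Cyp4f17.

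Outside the 7 loci, 5 of 8 genes of Cyp2, Cyp3 and Cyp4 had an interaction. Cyp2w1, an enzyme known in human from fetal gut and colon tumors, had 14 interactions, the second highest count. It lies on chromosome 5 from 139352616 to 139359607. Its partners lay from 70 kb lower to 140 kb higher and included ends of Zfand2a, a stress-induced zinc finger gene, Gpr146, Cox19 and C130050O18Rik. Both of its anchored bins also held an end of the neighbouring gene 3110082I17Rik, within 2.5 kb, so all 14 interactions counted for both genes.

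Cyp2u1, a fatty acid hydroxylase known in human from brain and thymus, had 11 interactions on chromosome 3. All partners lay at higher coordinates, at 180 to 280 kb, next to each other, with ends of Sgms2, a sphingomyelin synthase, and Papss1, a sulfate donor synthase, at the borders. After merging they were 1 contact. Cyp4f18, a leukotriene hydroxylase on chromosome 8, had 7 interactions that stayed 6 after merging, with partners at ends of Zfp617, Zfp882 and the tropomyosin gene Tpm4. Cyp2r1, the main enzyme that activates vitamin D in liver, had 5, all at 270 to 290 kb, with partners at ends of the proteasome gene Psma1 and of Copb1. Its bins also held an end of Pde3b. Cyp4v3 had 3 interactions with partners at 640 to 670 kb, the most distant median in the family, in a bin that also held an end of Fam149a. Cyp2e1, the ethanol-oxidising enzyme, Cyp2c23 and Cyp3a13 had 0.

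**Figure D3:**
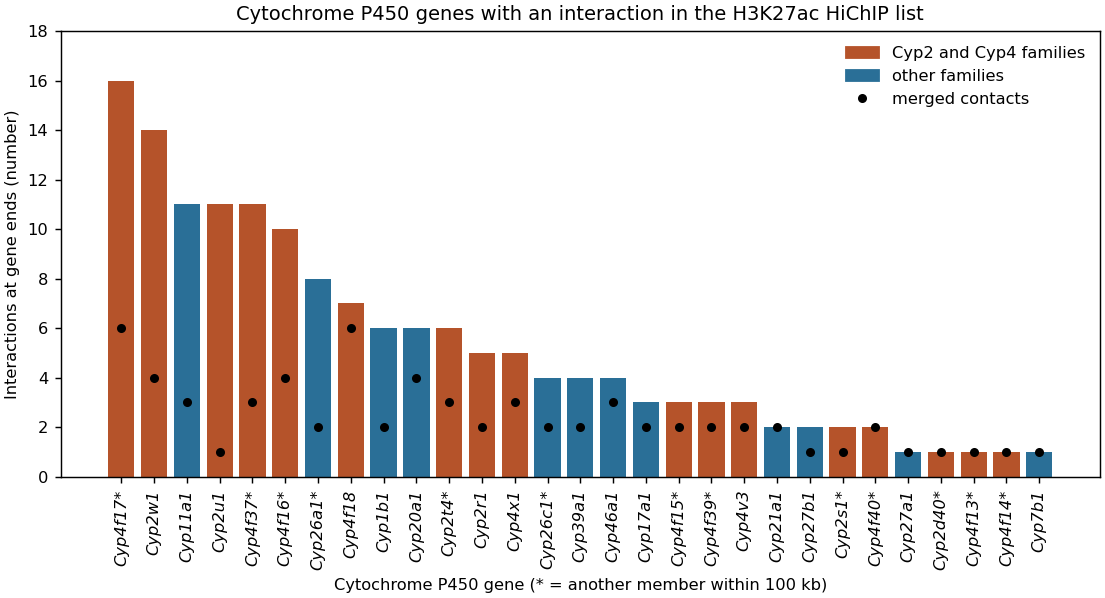
Bars give the number of interactions at the ends of the 29 cytochrome P450 genes that had any, coloured by family; black points give the contacts left after merging adjacent interactions, and an asterisk marks clustered genes. Counts run from 16 at Cyp4f17 to 1 at 5 genes, and merged contacts reach 6.

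In the other families, the retinoic acid hydroxylases differed from each other. Cyp26a1, which clears retinoic acid, had 8 interactions and its neighbour Cyp26c1 had 4, on chromosome 19 from 37685112 to 37701536. All partners of Cyp26a1 lay at higher coordinates, at 100 to 210 kb, and included an end of Myof, a membrane repair gene. The 4 interactions of Cyp26c1 were in a bin shared with Cyp26a1, and its own start had 0. Cyp26b1, on chromosome 6, had 0.

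The steroid genes were connected in part. Cyp11a1, which starts steroid synthesis by cutting the side chain of cholesterol, had 11 interactions, all at its lower end, which holds its start. Their partners lay 40 to 240 kb lower and included ends of Sema7a, a semaphorin, Ubl7 and the kinase gene Clk3. Cyp17a1 had 3 and Cyp21a1 had 2, both steroid hydroxylases. The adrenal hydroxylase genes Cyp11b1 and Cyp11b2 and the aromatase gene Cyp19a1, which makes estrogen, had 0.

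Among sterol and bile acid genes, Cyp46a1 and Cyp39a1 had 4 each, and Cyp7b1 and Cyp27a1 had 1 each, all of them hydroxylases of cholesterol or oxysterols. Cyp46a1, the cholesterol hydroxylase of neurons, lies on chromosome 12, and its anchored bins also held ends of Eml1 and Hhipl1. Cyp7a1, the rate-limiting enzyme of bile acid synthesis, and Cyp8b1, which directs it to cholic acid, had 0. Of the vitamin D genes, Cyp27b1, which activates the hormone, had 2, in a bin shared with Mettl1 and Eef1akmt3, and Cyp24a1, which degrades it, had 0. Cyp1b1, an enzyme induced through the aryl hydrocarbon receptor, had 6, all with partners 50 to 130 kb higher and none at a coding gene end. Its relatives Cyp1a1 and Cyp1a2 had 0. Cyp20a1, an enzyme of unknown substrate, had 6, of which 5 reached 510 to 620 kb, in a bin that also held an end of Nbeal1.

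Partners were nearer than in the list as a whole. The median distance was 130 kb for the 128 interactions of the family (interquartile range 80 to 233 kb), against 180 kb for the whole list (100 to 300 kb). Those under 100 kb made up 30.5%, against 22.4% of the list. The most distant partner lay at 670 kb. The partner bin held an end of a coding gene outside the family in 58 interactions (45.3%) and no coding gene end in 56 (43.8%), and the other 14 joined 2 members. At 7 of the 29 connected members, an anchored bin also held an end of a gene outside the family, namely Cyp2w1, Cyp20a1, Cyp2t4, Cyp2r1, Cyp46a1, Cyp4v3 and Cyp27b1. No like share over the whole list or over all connected coding genes is given for partner ends or shared bins. Whether these values are particular to the family is therefore not known.

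**Figure D4:**
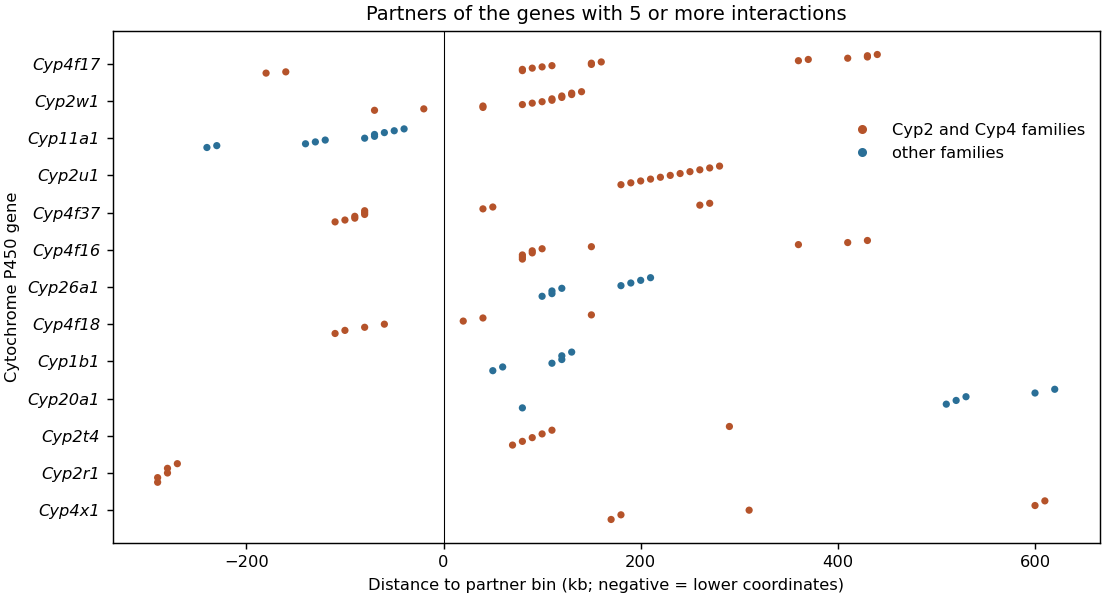
Each point is 1 interaction of a cytochrome P450 gene with 5 or more, placed by the distance from the gene's bin to the partner bin (kb, negative for lower coordinates) and coloured by family. Partners lay only at higher coordinates for Cyp2u1, Cyp26a1, Cyp4f16, Cyp1b1, Cyp20a1, Cyp2t4 and Cyp4x1, and only at lower ones for Cyp11a1 and Cyp2r1.

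A RefSeq promoter entry with a strand was found for 72 of the 92 members, which allowed the transcription start to be told from the other end. Of these 72, 22 had an interaction at either end and 17 at a start. The 5 without one at the start were Cyp2s1, Cyp4f39, Cyp4f40, Cyp4f14 and Cyp26c1. At the first listed start, 17 of the 72 (23.6%) had an interaction, against 59.3% of 16457 coding genes with an entry. The share of the family was lower than that of all coding genes at starts as well.

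The promoters of P450 genes held few CpG pairs, the pairs of cytosine and guanine that are dense at the starts of many broadly used genes. The ratio of observed to expected CpG over 300 bases had a median of 0.257 at the 22 members with an interaction and 0.136 at the 50 without. Over all coding genes, these medians were 0.720 at 10804 genes with an interaction and 0.234 at 5653 without. The ratio was above 0.6 at 6 of the 72 members (8.33%) and at 8176 of 16457 coding genes. All 6 had an interaction (exact interval 54.1 to 100%), against 83.4% of the coding genes above 0.6: Cyp46a1, Cyp26a1, Cyp4v3, Cyp2r1, Cyp20a1 and Cyp1b1. The share of all coding genes lies within that interval. Among the 66 members at or below 0.6, 16 had an interaction (24.2%, 14.5 to 36.4%), against 48.1% of 8281 coding genes. The share of P450 genes was the lower of the 2 in this class, but its genes were not matched for CpG content. Over both classes, the median ratio was 0.159 at the 72 members and 0.595 at all coding genes with an entry. The part of CpG content was not tested.

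**Figure D5:**
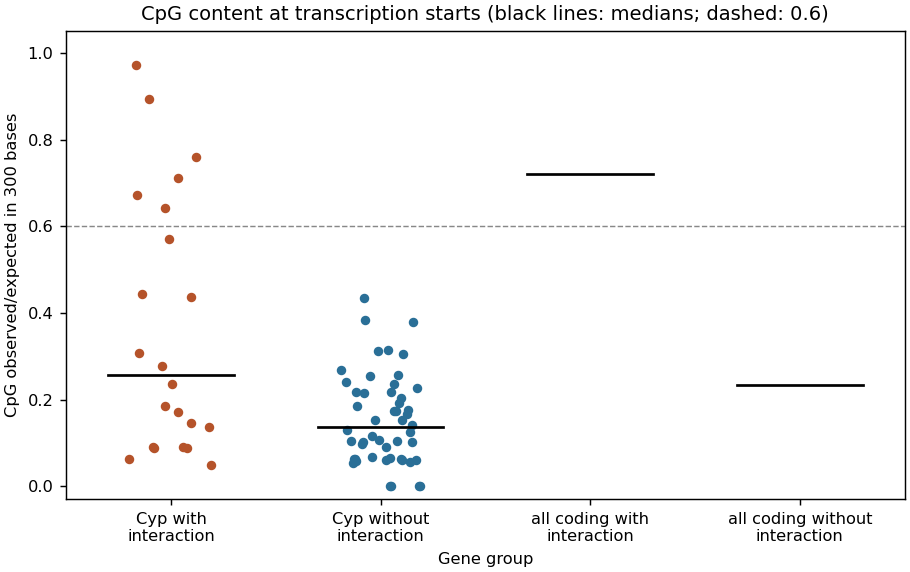
Points give the ratio of observed to expected CpG in 300 bases at the transcription start for 22 cytochrome P450 genes with and 50 without an interaction, and black lines are medians, shown alone for all coding genes. All 6 P450 genes above the dashed line at 0.6 had an interaction, against 83.4% of all coding genes above it.

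Of several short motifs searched on both strands of these windows, TATAAA, the letters of the TATA box, was found at 2 of 22 members with an interaction (9.09%) and 27 of 50 without (54.0%). Over all coding genes it was found at 8.31% of those with an interaction and 23.5% of those without. The hexamer bound by nuclear receptors, AGGTCA, was found at 2 of 22 and 18 of 50 members. Over all coding genes it was found at 13.1% of those with an interaction and 17.1% of those without. The core of the aryl hydrocarbon receptor site, GCGTG, was found at 9 of 22 and 6 of 50, beside 47.3% and 23.7%. More frequent GCGTG at genes with an interaction was thus seen over all coding genes as well. The TEAD letters GGAATG were found at 2 of 22 and 9 of 50, beside 12.3% and 14.8%. The AP-1 letters TGANTCA were found at 2 of 22 and 4 of 50, beside 5.77% and 9.85%. Of the 50 members without an interaction, 17 had a near copy as defined above, so motif counts of different members are not independent. GCGTG holds a CG pair, so it is not independent of CpG content, and a match describes the sequence only. TATAAA holds only A and T, so it is not independent of base composition either. The median share of G and C was 55.3% at the 22 connected members and 47.3% at the 50 others.

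Promoters of connected and unconnected members are set beside each other to show the range of CpG content. The connected pair holds the most CG pairs of all 72 members and is not typical: the median of the 22 connected members was 5.5, and connected Cyp4f16 and Cyp4f37, shown above, have 2 each. They are from RefSeq on GRCm38.p6, and capitals mark CG pairs and TATAAA. The first pair had interactions: Cyp26a1 (chr19:37697558-37697857, plus strand, 26 CG pairs) and Cyp46a1 (chr12:108334066-108334365, plus strand, 31 CG pairs). The second pair had 0: Cyp3a11 (chr5:145879805-145880104, minus strand) and Cyp2c29 (chr19:39286835-39287134, plus strand), with 2 CG pairs each.
Cyp26a1: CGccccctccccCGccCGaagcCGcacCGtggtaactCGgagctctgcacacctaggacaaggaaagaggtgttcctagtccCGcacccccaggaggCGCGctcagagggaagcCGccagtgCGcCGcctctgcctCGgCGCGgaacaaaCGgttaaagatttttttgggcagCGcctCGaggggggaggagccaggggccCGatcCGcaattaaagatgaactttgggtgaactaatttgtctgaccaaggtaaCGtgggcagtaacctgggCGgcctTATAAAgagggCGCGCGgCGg
Cyp46a1: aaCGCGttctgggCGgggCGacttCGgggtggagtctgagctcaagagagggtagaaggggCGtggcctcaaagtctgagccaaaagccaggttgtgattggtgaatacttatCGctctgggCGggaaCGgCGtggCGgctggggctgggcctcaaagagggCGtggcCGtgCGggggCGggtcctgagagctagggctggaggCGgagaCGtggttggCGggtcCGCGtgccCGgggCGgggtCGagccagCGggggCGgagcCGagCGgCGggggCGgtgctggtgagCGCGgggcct
Cyp3a11: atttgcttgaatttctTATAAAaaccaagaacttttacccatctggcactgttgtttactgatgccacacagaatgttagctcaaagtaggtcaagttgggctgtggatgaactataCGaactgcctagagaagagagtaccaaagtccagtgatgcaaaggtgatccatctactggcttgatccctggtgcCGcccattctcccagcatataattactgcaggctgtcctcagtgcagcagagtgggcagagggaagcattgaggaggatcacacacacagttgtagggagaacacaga
Cyp2c29: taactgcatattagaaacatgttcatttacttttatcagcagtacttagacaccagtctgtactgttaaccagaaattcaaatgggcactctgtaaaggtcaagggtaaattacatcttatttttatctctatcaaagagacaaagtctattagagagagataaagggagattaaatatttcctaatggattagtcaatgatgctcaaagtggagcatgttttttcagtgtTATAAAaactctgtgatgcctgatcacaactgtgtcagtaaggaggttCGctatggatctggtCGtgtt
In Cyp2c29, TATAAA begins 19 bases before the listed start. In Cyp26a1 it lies within the 50 bases after it, and in Cyp3a11 it lies 234 bases before.

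Genes that work with P450 enzymes are set beside all autosomal coding genes, of which 65.7% had an interaction, with a median of 2. The lists are short, and none was tested against these values. All 7 redox partners had an interaction, and the median was 5. Among them, Fdxr, the reductase of mitochondrial P450 enzymes, had 11, in bins shared with Fads6 and Grin2c, and Por, the electron donor of the microsomal ones, had 3. Of 17 receptors and cofactors that control P450 genes, 10 had at least 1, and the median was 4. The aryl hydrocarbon receptor gene Ahr had 19, the retinoid receptor Rxra 18 and the vitamin D receptor Vdr 11. After merging, these were 10, 3 and 6 contacts. Nr1i3, the constitutive androstane receptor of liver, had 10, in bins shared with Apoa2, Fcer1g and Tomm40l, and the fatty acid receptor Ppara had 2. The liver regulators Nr1i2 (the pregnane receptor), Nr1h4 (the bile acid receptor), Hnf4a, Nr5a2 and Nr0b2 had 0, as did Nr5a1 and Esr1. In retinoic acid handling, 8 of 12 genes had any, and the median was 2. Dhrs3, a retinaldehyde reductase, had 38, Rdh10, which makes retinaldehyde, had 20 and Aldh1a3, which makes retinoic acid, had 18. After merging, these were 3, 8 and 4 contacts. Rdh10 shared a bin with Rpl7, and Aldh1a3 with Lrrk1. Among steroid synthesis partners it was 5 of 9 (median 1), and among conjugation and transport genes 7 of 13 (median 2). Among liver genes outside the family it was 6 of 14 (median 0), and Alb, the albumin gene, had 0. As a check of the tissue, all 5 neural progenitor markers (Sox2, Nes, Sox9, Vim and Hes1) had interactions, with a median of 26, and 3 of 6 hepatocyte markers did, with a median of 0.5. Pericyte and fibroblast markers had interactions at 5 of 5 genes (median 1) and endothelial markers at 3 of 3 (median 7). Of these markers, Nes shared a bin with Bcan, Fgb with Plrg1 and Pdgfrb with Gm52351. Apoa1 shared bins with Apoa4, Apoc3 and Sik3.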

How the data were processed

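The analysis used 1 list of interactions, deposited by the authors without scores. Its values are positions in base pairs of the anchor bins, per the file headers. BWA and mm10 are named per the submitters' processing notes; which caller made the list, at what threshold and from which replicates is not given in the sources used here. Read depth is unknown.

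Gene positions came from RefSeq for GRCm38.p6, which pairs symbols with coordinates, and starts from the RefSeq promoter table. Bins were intersected with gene-end windows in Python 3.11.15 with pandas 2.3.3; exact (Clopper-Pearson) intervals used SciPy 1.17.1, and promoters were aligned locally with Biopython 1.88. Merging joined interactions that were at most 1 bin apart at each anchor. The counting was tested on simulated data. The members, gene lists and classes were chosen with earlier results of these data known, and the near-copy, CpG, motif and same-stem comparisons after the values of the members were seen. Named genes were all members outside Cyp2, Cyp3 and Cyp4, the connected members of these, their loci, partners and lists; unconnected members were named after their values were seen. No set test or resampling was made. Alternatives were the window, the start or whole span in place of both ends, bin midpoints, genes without an outside neighbour in their bins, cluster distances of 50 and 500 kb, merging, every coding Cyp symbol, and leaving out Cyp4f.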

Additional observations from a re-analysis of the deposited data

How the results depend on the processing

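No paired analysis was possible because nothing in the deposited file is tied to a library, and leaving out a replicate was not run for the same reason. Of 57 recomputed values, 3 shares moved outside the exact interval of the reported share. The other 54 comprise shares that stayed within it and 10 medians, all 0. Without members that share an end bin with a gene outside the family, 22.2% of 72 members had an interaction, beside 50.5% of coding genes chosen likewise. Without Cyp4f, a choice made after the data were seen, the share was 8.47% for clustered genes (5 of 59) and 14.3% for Cyp2, Cyp3 and Cyp4 (9 of 63). The share of all members ran from 22.2 to 34.8% over the settings. With bin midpoints it was 25%, beside 40.5% of all coding genes. Clusters within 50 kb gave 22.2% for clustered and 44.7% for single genes. A gene without a listed interaction was not detected in this list, whose depth is unknown.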

Other observations

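P450 genes whose symbols fall outside the rule were counted in the same way. Cyp51, the sterol demethylase of cholesterol synthesis, had 9 interactions reaching 850 kb, Ptgis, the prostacyclin synthase, had 3 and Tbxas1, the thromboxane synthase, had 1. Of the 6 further coding Cyp symbols, Cyp4a12b had 1, and Cyp2ab1, Cyp3a41a, Cyp3a41b, Cyp4a12a and Cyp4a30b had 0.

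Pseudogenes of the family gave 4 of 29 with an interaction, and transcribed pseudogenes 1 of 5. No share over all pseudogenes of the genome is given beside these counts. Cyp4f41-ps, beside the Cyp4f locus, and Cyp3a60-ps, outside the bare stretch of Cyp3a, had 4 each. Cyp2d39-ps had 3, Cyp2d67-ps had 2 and Cyp21a2-ps had 1.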
